A study of Mus musculus with 12 samples.

Results

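Carriage of organic anions, bile pigments and drugs through the liver cell was followed over 10 genes, chosen by name as uptake carriers of the blood-facing membrane, export pumps of the bile canaliculus and export pumps that face the blood. All 10 are among the 22170 gene names of the deposited table, and each was measured as the FPKM of its transcripts summed per gene (fragments scaled by transcript length and by library size). The livers came from 12 male C57BL/6J mice of 21 weeks of age, individually housed and fasted before collection, with 3 mice in each of 4 diet groups fed for 16 weeks. ND mice received a normal diet and HFD mice a high-fat diet, CLE mice the high-fat diet with 1.5% (w/w) of an ethanol extract of chrysanthemum leaves, and LU mice the high-fat diet with 0.003% (w/w) luteolin, a flavonoid of those leaves. The comparison of HFD with ND asks what the diet changed, those of CLE and LU with HFD ask what each supplement changed on that diet, and because these comparisons share the same 3 HFD livers their values are given side by side and not correlated.

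A hepatocyte takes up anions, conjugates and many drugs from sinusoidal blood through the organic anion transporting polypeptides, which the Slco genes encode and which exchange their cargo without using ATP. After metabolism, ATP-driven pumps of the ABC family move conjugates either across the canalicular membrane into bile or back across the basolateral membrane into blood. The basolateral pumps encoded by Abcc3 and Abcc4 are known as an alternative way out when bile secretion is impaired. In mice several of these genes are known to differ between the sexes and to respond to nuclear receptors that sense foreign compounds and bile acids.

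The tissue label was checked on 11 hepatocyte genes, of which albumin (Alb) is listed at 0 in 11 of the 12 livers and at 19853 FPKM in LU mouse 3, so that a 0 in this table can be a failed estimate. Summed over the other 10 genes the FPKM was 29257 to 31504 in ND, 27093 to 33418 in HFD, 30033 to 42249 in CLE and 32841 to 36653 in LU livers. The read depth of the libraries is unknown, because FPKM values do not keep it. The CLE and LU libraries stood apart from the ND and HFD libraries in base composition: the rank correlation of a library's deviations with the GC content of the genes was -0.372 to -0.141 in ND and HFD livers and 0.158 to 0.479 in CLE and LU livers, with CLE mouse 4 highest. This property and the supplements cannot be told apart. Across all 11566 genes tested, the median log2 difference between HFD and ND was 0.11, and 1156 of 1400 called genes were higher in HFD. With median-of-ratios scaling the median was -0.01 and 619 of 1124 called genes were higher.

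All 10 transporter genes passed the filter of a mean of 0.5 FPKM, and 8 of them were at or above that level in all 12 livers. Averaged over the 12 livers, Slco1b2 had the highest level at 493 FPKM, followed by Abcb4 at 188, Abcc2 at 126, Abcc3 at 106, Abcc6 at 84.4, Slco1a1 at 77.6, Slco2b1 at 42.4 and Slco1a4 at 28.1 FPKM. Abcb1a and Abcc4 were near the filter at 1.14 and 0.758 FPKM. The order depended on the diet. In ND livers Slco1a1 ranked the third, and in HFD livers it fell below Slco2b1 and Slco1a4, with no overlap between the HFD values of Slco1a1 and those of either. In ND livers the neighbours Abcc6 and Abcc3, Slco2b1 and Slco1a4, and Abcc4 and Abcb1a overlapped.

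**Figure D1:**
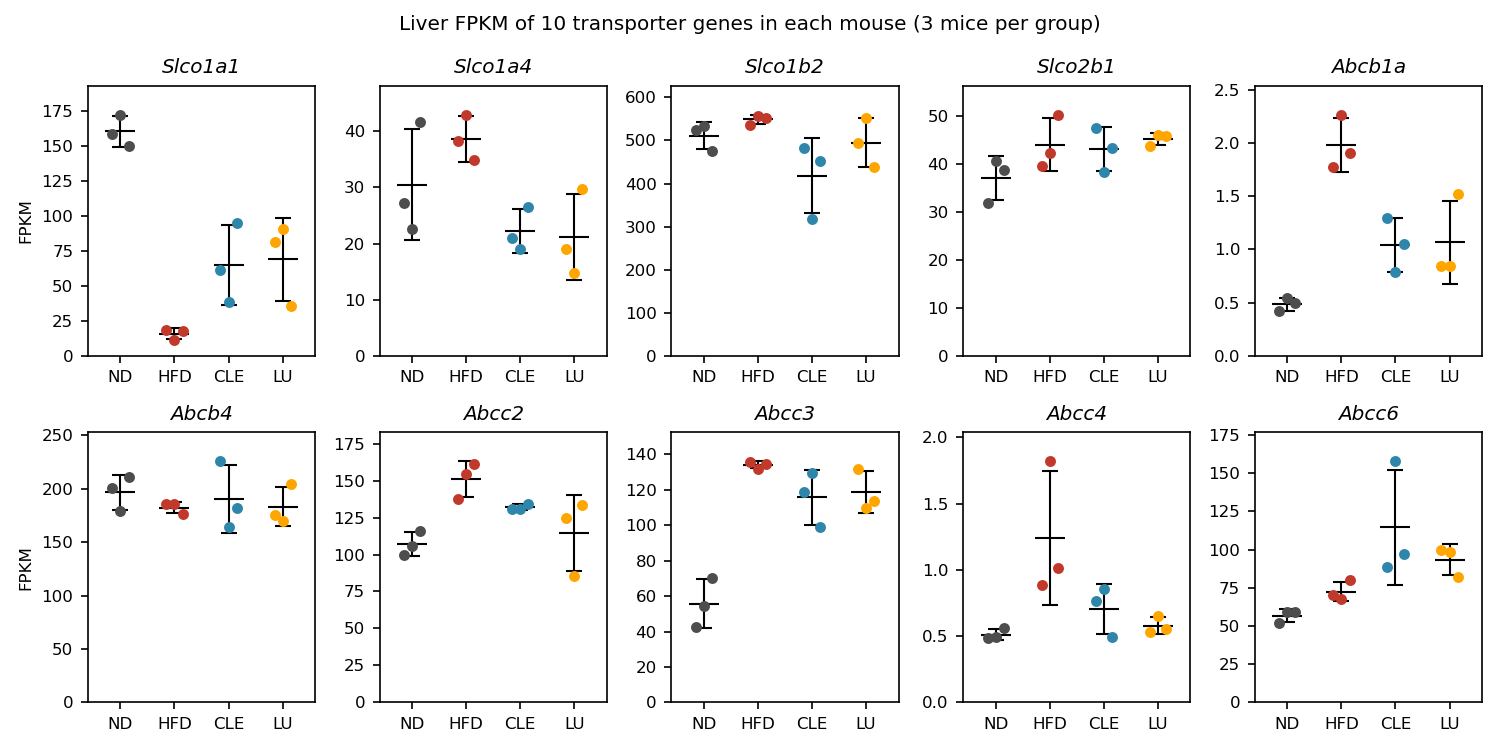
FPKM (vertical axes, linear from 0, one scale per gene) of the 10 transporter genes in each mouse (points), with the mean and SD of the 3 mice in each diet group (lines and bars). Slco1a1 falls from 160 FPKM in ND to 15.9 FPKM in HFD livers and lies between in CLE and LU livers, while Abcc3 stays high in all 3 groups on the high-fat diet.

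Between HFD and ND livers, 5 of the 10 genes were called at an adjusted p of 0.05 in limma's moderated test, against 12.1% of all genes. Higher in HFD were 4, namely Abcb1a, Abcc2, Abcc3 and Abcc4, where 9.99% of all genes were higher, and lower was 1, Slco1a1, where 2.11% of all genes were lower. The calls of Abcc2 and Abcc4 were lost with median-of-ratios scaling, quantile normalization or GC correction. The median log2 difference of the 10 genes was 0.36 and that of all genes 0.11. In 7 of the 10 the 3 HFD mice did not overlap the 3 ND mice, against 36.5% of all genes. Against HFD, 2 genes were called in CLE livers, Slco1a1 higher and Abcb1a lower, with 6.03% of all genes called (2.74% higher and 3.29% lower), and 1 gene in LU livers, Slco1a1 higher, with 1.03% of all genes called (0.303% higher and 0.726% lower). The median log2 difference of the 10 genes was -0.20 in CLE and -0.17 in LU livers, where the medians of all genes were 0.02 and -0.02.

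**Figure D2:**
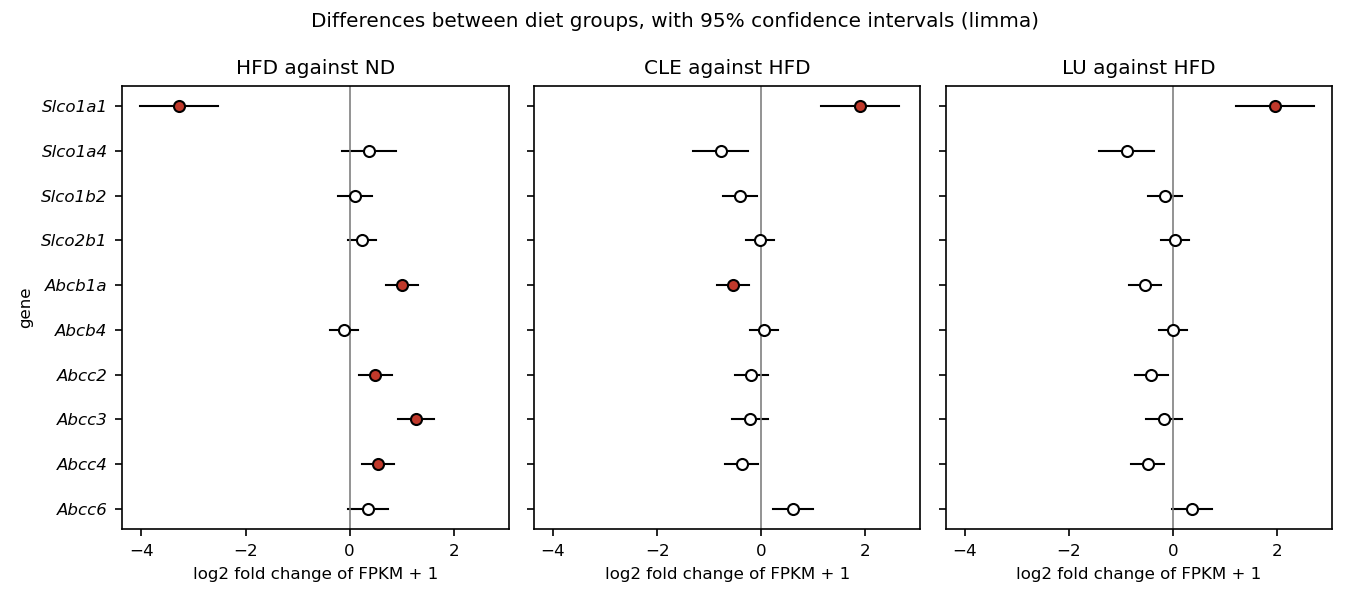
Log2 fold change of FPKM + 1 (horizontal axes) of each gene (rows) in 3 comparisons, with 95% confidence intervals from limma, filled points marking an adjusted p below 0.05. Slco1a1 stands at -3.28 in HFD versus ND and at 1.90 and 1.97 in CLE and LU versus HFD, and Abcb1a at 1.00, -0.55 and -0.54, the last without a call.

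Slco1a1 encodes the carrier Oatp1a1, a sinusoidal uptake carrier of steroid conjugates and bile acids that is known as male-predominant in mouse liver. It lies on chromosome 6 (chr6:141907282-141946962, minus strand, GRCm38), in a cluster with Slco1a4 (chr6:141805440-141856199, minus strand), which encodes Oatp1a4, and Slco1b2 (chr6:141629518-141686646, plus strand), which encodes Oatp1b2. In ND livers Slco1a1 was 159, 172 and 150 FPKM, in HFD livers 18.4, 11.4 and 17.9, in CLE livers 61.4, 38.2 and 95.2 and in LU livers 81.1, 90.4 and 35.4 FPKM. Each HFD liver was below each liver of the other 3 groups, and each CLE and LU liver was below each ND liver. The means were 160 ± 11.1 in ND, 15.9 ± 3.92 in HFD, 65.0 ± 28.7 in CLE and 69.0 ± 29.5 FPKM in LU livers (SD, n = 3).

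HFD livers thus held 10.1-fold less Slco1a1 than ND livers, a log2 fold change of -3.28 (SE 0.346, adjusted p = 1.1e-04 by limma). CLE livers held 4.08-fold more than HFD livers (log2 fold change 1.90, SE 0.346, adjusted p = 0.0187) and LU livers 4.33-fold more (1.97, SE 0.346, adjusted p = 0.0187). The levels reached 40.5% of the ND mean in CLE and 43.0% in LU livers, and both remained lower than ND (log2 fold change -1.38, adjusted p = 0.0144, and -1.31, adjusted p = 0.0273). The fall on the high-fat diet kept its call in all 25 alternatives (-3.57 to -3.07, adjusted p at most 0.00135). The rise with CLE lost its call in 5 of 25 alternatives (adjusted p 0.00615 to 0.0969 over all), among them without HFD mouse 12 (0.0514) or HFD mouse 15 (0.0969), and the rise with LU in 7 of 25 (0.00223 to 0.2), among them without HFD mouse 15 (0.113), HFD mouse 18 (0.0608), LU mouse 2 (0.0897) or LU mouse 3 (0.0962). The call of CLE versus ND was lost without CLE mouse 4 (log2 fold change -1.06, adjusted p = 0.0589), and that of LU versus ND without any one of the ND mice (0.067 to 0.0689) or LU mouse 8 (0.0738). Over 26 alternatives the adjusted p of Slco1a1 ranged up to 0.183 for CLE versus ND and up to 0.409 for LU versus ND.

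A score of clock genes (the mean standardized level of 8 genes that peak with Dbp minus that of 4 genes of the opposite phase, Arntl among them) moved with the supplements. It was -3.32 to -0.419 in ND, -1.45 to 0.452 in HFD, 0.562 to 1.76 in CLE and 0.445 to 1.94 in LU livers. Every CLE score was above every HFD score and the LU scores barely overlapped them, so the score and the supplements can hardly be told apart. With the score as a covariate in limma, the log2 fold change of Slco1a1 was 1.69 for CLE versus HFD (adjusted p = 0.0902). For LU versus HFD it was 1.70 (adjusted p = 0.2). Direction and size stayed and the calls were lost. So were most calls over all 11566 genes, which went from 698 to 43 for CLE versus HFD and from 119 to 15 for LU versus HFD. With correction for GC content the values were 2.07 (adjusted p = 0.0182) and 2.16 (adjusted p = 0.0208).

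The neighbours in the cluster had other patterns. Slco1a4 was 27.2, 22.6 and 41.7 FPKM in ND livers, 38.3, 42.9 and 34.8 in HFD, 21.0, 19.0 and 26.5 in CLE and 18.9, 14.8 and 29.7 in LU livers. HFD and ND livers overlapped, and every CLE and LU liver was below every HFD liver. The log2 fold change was 0.37 for HFD versus ND (adjusted p = 0.353), -0.78 for CLE versus HFD (adjusted p = 0.0653) and -0.89 for LU versus HFD (adjusted p = 0.0895), none of which passed. HFD versus ND passed with the clock score as covariate (0.87, adjusted p = 0.0331; 0.0331 to 0.959 over 25 alternatives) and was 0.19 without ND mouse 3 and 0.61 without ND mouse 4, both without a call. CLE versus HFD passed for the transcript with the highest mean (-2.07, adjusted p = 0.0202) and without LU mouse 8 (adjusted p = 0.0483; 0.0202 to 0.25 over 25 alternatives), and LU versus HFD without LU mouse 8 (-1.15, adjusted p = 0.0291; 0.0291 to 0.577). The ratio of Slco1a1 to Slco1a4 was 3.61 to 7.62 in ND, 0.266 to 0.516 in HFD, 2.01 to 3.59 in CLE and 1.19 to 6.10 in LU livers. About 2.6% of the 50-base windows of the Slco1a1 transcript and 2.73% of those of Slco1a4 recur in other Slco1a genes, so a small part of their fragments can be shared out between copies.

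Promoter windows of the clustered genes are shown because neighbours on 1 chromosome had different values under the same diets. Each is the 250 bases before the annotated start in RefSeq (GRCm38.p6), read 5′ to 3′ on the strand of the gene, and 8 of the 10 genes have such an entry. Capitals mark matches on either strand to the letters AGGTCA (a nuclear receptor half-site), TTCNNNGAA (the STAT motif), TGACNNNGC (the antioxidant response element) or TATAAA (the TATA box). The windows lie at chr6:141946963-141947212 (Slco1a1, minus strand), chr6:141856221-141856470 (Slco1a4, minus strand) and chr6:141629268-141629517 (Slco1b2, plus strand).
Slco1a1: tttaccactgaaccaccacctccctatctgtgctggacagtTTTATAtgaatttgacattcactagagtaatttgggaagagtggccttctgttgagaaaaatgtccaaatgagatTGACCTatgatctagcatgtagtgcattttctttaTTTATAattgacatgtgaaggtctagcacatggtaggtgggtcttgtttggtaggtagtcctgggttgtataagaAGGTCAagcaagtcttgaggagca
Slco1a4: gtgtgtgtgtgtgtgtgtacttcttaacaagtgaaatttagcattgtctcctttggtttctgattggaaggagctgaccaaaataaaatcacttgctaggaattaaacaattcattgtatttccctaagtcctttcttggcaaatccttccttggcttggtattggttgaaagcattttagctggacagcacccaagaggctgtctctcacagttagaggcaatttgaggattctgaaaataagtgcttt
Slco1b2: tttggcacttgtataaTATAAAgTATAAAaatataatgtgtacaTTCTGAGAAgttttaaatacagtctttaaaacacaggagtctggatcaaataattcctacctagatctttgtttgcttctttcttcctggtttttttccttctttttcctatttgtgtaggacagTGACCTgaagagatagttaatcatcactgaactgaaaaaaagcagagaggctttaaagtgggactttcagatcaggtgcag
In the Slco1a1 window AGGTCA matched on the gene's strand 24 to 19 bases before the start and on the opposite strand 134 to 129 bases before it, and TATAAA matched on the opposite strand 99 to 94 and 209 to 204 bases before it. Slco1b2 had an AGGTCA match on the opposite strand 81 to 76 bases before the start, a TTCNNNGAA match 206 to 198 bases before it and a pair of TATAAA matches farther upstream. None of the 4 motifs matched in the Slco1a4 window. Of all 32851 promoter windows of this length, 14% hold AGGTCA, 7.02% TTCNNNGAA, 10.2% TGACNNNGC and 12.4% TATAAA.

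Slco1b2 encodes the hepatocyte carrier of bilirubin, bile acids and statins, and had the highest level of the 10 genes in every group. It was 525, 533 and 475 FPKM in ND, 537, 557 and 553 in HFD, 482, 318 and 453 in CLE and 494, 553 and 438 FPKM in LU livers. The CLE livers were below the HFD livers, with CLE mouse 4 lowest, and the LU livers overlapped them. No comparison passed: the log2 fold change was 0.10 for HFD versus ND (adjusted p = 0.709; -0.06 with median-of-ratios scaling) and -0.41 for CLE versus HFD (adjusted p = 0.0964).

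Slco2b1, on chromosome 7 (chr7:99657804-99711340, minus strand), encodes Oatp2b1, a carrier of sulfated steroids also found in gut. It varied least among the uptake carriers, with means of 37.2 ± 4.65 FPKM in ND, 44.1 ± 5.53 in HFD, 43.2 ± 4.55 in CLE and 45.2 ± 1.23 FPKM in LU livers (SD, n = 3). The highest liver held 1.58-fold the lowest. Its log2 fold change was 0.24 for HFD versus ND (adjusted p = 0.23) and 0.28 for LU versus ND (adjusted p = 0.126).

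Summed over the 4 Slco genes, the FPKM was 706 to 768 in ND, 633 to 656 in HFD, 414 to 619 in CLE and 549 to 704 in LU livers. Slco1a1 made up 21.3% to 22.4% of that sum in ND livers, 1.75% to 2.91% in HFD, 9.23% to 15.4% in CLE and 6.45% to 12.8% in LU livers, and Slco1b2 made up 67.3% to 70.6% in ND and 84.3% to 85.2% in HFD livers. The lowest sum was that of CLE mouse 4.

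**Figure D3:**
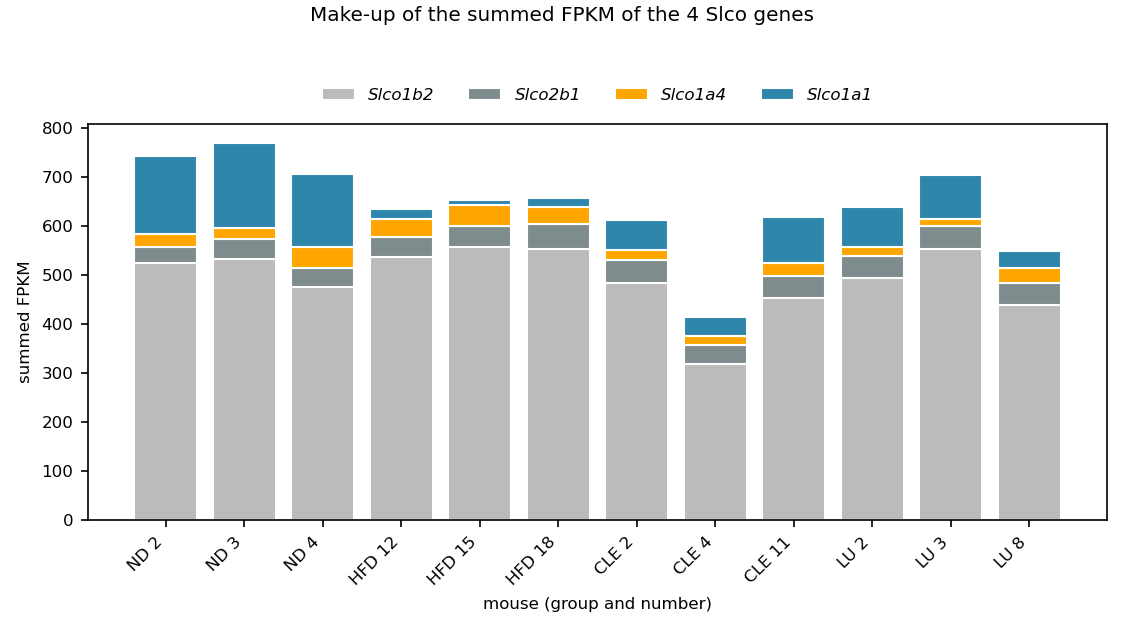
FPKM of the 4 Slco genes stacked for each of the 12 mice (horizontal axis, group and mouse number; vertical axis from 0). The Slco1a1 share is 21.3% to 22.4% in ND livers and 1.75% to 2.91% in HFD livers, and Slco1b2 is the largest share in every liver.

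Of the canalicular pumps, Abcb1a encodes a P-glycoprotein, which exports many lipophilic drugs and is also made in endothelium and leukocytes. It lies on chromosome 5 (chr5:8660077-8748575, plus strand). The levels were low, at 0.420, 0.541 and 0.499 FPKM in ND, 1.78, 2.26 and 1.90 in HFD, 1.29, 0.787 and 1.05 in CLE and 0.844, 0.840 and 1.52 FPKM in LU livers. Every HFD liver was above every other liver, and every CLE and LU liver was above every ND liver. HFD livers held 4.07-fold the ND mean (log2 fold change of FPKM + 1 of 1.00, SE 0.142, adjusted p = 8.6e-04 by limma), a call kept in all 24 alternatives that tested the gene. The log2 fold change was -0.55 for CLE versus HFD (adjusted p = 0.0442) and -0.54 for LU versus HFD (adjusted p = 0.0845), and the direct comparison of CLE with LU gave an interval of -0.32 to 0.30. The CLE call was lost in 16 of 24 alternatives (adjusted p 0.0197 to 0.191), among them without any one of the ND or HFD mice, without CLE mouse 4 (0.176) or 11 (0.0708), or without LU mouse 2 (0.0532). Against ND, Abcb1a was higher in CLE (0.45, adjusted p = 0.0338) and LU livers (0.46, adjusted p = 0.0466), where n = 3 in each group. The CLE call versus ND was lost in 10 of 25 alternatives (adjusted p 0.0103 to 0.908), among them without any one of the ND mice (0.0602 to 0.0896), CLE mouse 2 (0.0878) or CLE mouse 11 (0.0716), and the value was -0.03 for the transcript with the highest mean. The LU call versus ND was lost in 18 of 25 (0.012 to 0.755), among them without any one of the ND (0.0812 to 0.117), HFD (0.0561 to 0.0615) or LU mice (0.0542 to 0.145) or without CLE mouse 11 (0.0575). Both calls versus ND were also lost with median-of-ratios scaling or quantile normalization, and the CLE call versus HFD with GC correction.

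Fewer cells of a type and less RNA per cell cannot be told apart in whole liver. Summed markers of endothelial cells and of macrophages were higher in HFD than in ND livers, as Abcb1a was. The summed FPKM of 6 endothelial genes was 67.5 to 80.2 in ND, 86.1 to 90.7 in HFD, 93.4 to 106 in CLE and 86.6 to 118 in LU livers. That of 6 of 7 macrophage genes was 99.3 to 111, 147 to 221, 148 to 188 and 112 to 191. In HFD versus ND limma called 1 of the 6 endothelial and 4 of the 6 macrophage genes higher (9.99% of all genes), and none lower. The endothelial gene Kdr was lower in every HFD liver (6.71 to 8.10 FPKM) than in every ND liver (8.58 to 9.97 FPKM). All of the 12 measured genes had a mean of at least 0.5 FPKM. The endothelial sum of every CLE liver was above every HFD liver, and the LU and HFD livers overlapped. The macrophage sums overlapped, with medians of 198 in HFD, 180 in CLE and 167 FPKM in LU livers. The part of these markers in the Abcb1a values was not tested. In the Abcb1a transcript, 17% of the 50-base windows recur in Abcb1b or Abcb4, and the split of fragments among these genes is uncertain.

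Abcb4 (chr5:8893717-8959231, plus strand), the canalicular flippase of phosphatidylcholine, was the steadiest of the 10. It was 200, 179 and 211 FPKM in ND, 186, 186 and 176 in HFD, 226, 164 and 182 in CLE and 175, 170 and 204 FPKM in LU livers, and the highest liver held 1.38-fold the lowest. All groups overlapped. The log2 fold change of HFD versus ND was -0.11 with a 95% interval of -0.38 to 0.17 (adjusted p = 0.646), and the gene passed in none of the 6 comparisons, with adjusted p of 0.586 to 0.994.

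Abcc2 (chr19:43782192-43840740, plus strand) encodes Mrp2, the canalicular pump of bilirubin glucuronides and glutathione conjugates. It was 99.9, 106 and 116 FPKM in ND, 138, 154 and 161 in HFD, 131, 131 and 134 in CLE and 125, 85.6 and 134 FPKM in LU livers. Every HFD liver was above every liver of the other groups. HFD exceeded ND 1.41-fold (log2 fold change 0.49, SE 0.147, adjusted p = 0.0471), a call lost in 18 of 25 alternatives (adjusted p 0.0102 to 0.879), among them without any one of the ND or HFD mice (0.0686 to 0.164), without CLE mouse 2 (0.051) or 11 (0.0603), or without LU mouse 2 (0.054). The call of HFD versus ND was also lost with median-of-ratios scaling, quantile normalization, GC correction, or length and GC correction. Neither CLE versus HFD nor LU versus HFD passed (LU log2 fold change -0.42, adjusted p = 0.154).

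Among the pumps that face the blood, Abcc3 (chr11:94343295-94392997, minus strand) encodes Mrp3, which returns glucuronides to blood. It was 42.6, 54.5 and 70.3 FPKM in ND, 136, 132 and 135 in HFD, 118, 130 and 99.2 in CLE and 132, 110 and 114 FPKM in LU livers. The ND livers were below all livers of the 3 groups fed the high-fat diet. Markers of pericentral hepatocytes moved the same way: their summed FPKM over 8 genes was 6523 to 7351 in ND, 8732 to 10457 in HFD, 8855 to 9614 in CLE and 8637 to 10931 in LU livers, and 5 of the 8 were called higher in HFD versus ND (median log2 difference 0.87). Over all genes 9.99% were called higher in that comparison, with a median of 0.11. Of 6 periportal markers limma called 0 in it, with a median of 0.14. Over all genes 12.1% were called, so 0 of 6 is near that share. At an unadjusted p of 0.05 it was 1 of the 6, against 27.2% of all genes. The pericentral sum mostly follows Cyp2e1, at 4850 to 5570 FPKM in ND and 6003 to 7392 FPKM in HFD livers. Axin2 overlapped between ND (1.56 to 6.05 FPKM) and HFD livers (4.44 to 6.41 FPKM). The part of the pericentral and periportal markers in the Abcc3 values was not tested. HFD exceeded ND 2.40-fold (log2 fold change 1.28, SE 0.16, adjusted p = 3.4e-04), CLE exceeded ND 2.07-fold (1.06, adjusted p = 0.00185) and LU exceeded ND 2.12-fold (1.10, adjusted p = 0.00221). The first call was kept in all 25 alternatives (log2 fold change 1.10 to 3.03), and the CLE and LU calls in all but 2 of 26 each, known transcripts only and the clock score as covariate (adjusted p at most 0.271 and 0.553). CLE differed from HFD by -0.22 (95% interval -0.56 to 0.13, adjusted p = 0.378) and LU from HFD by less than the test could call (95% interval -0.53 to 0.17), so that a fall below HFD was not shown for either supplement.

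Abcc4 (chr14:118482692-118706219, minus strand) encodes Mrp4, a basolateral pump of bile acids, cyclic nucleotides and steroid sulfates that is low in normal liver. It was 0.487, 0.490 and 0.560 FPKM in ND, 0.883, 1.82 and 1.02 in HFD, 0.764, 0.852 and 0.492 in CLE and 0.532, 0.651 and 0.554 FPKM in LU livers. Every HFD liver was above every other liver. HFD exceeded ND 2.42-fold (log2 fold change of FPKM + 1 of 0.54, SE 0.146, adjusted p = 0.0291), a call lost in 9 of 22 alternatives (adjusted p 0.0255 to 0.139), among them without ND mouse 2 (0.0928), 3 (0.0702) or 4 (0.067) and without HFD mouse 15 (0.1) or 18 (0.0513). That call was also lost with median-of-ratios scaling, quantile normalization, GC correction or the clock score as covariate. The values for CLE and LU versus HFD were -0.38 (adjusted p = 0.111) and -0.48 (adjusted p = 0.117).

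Abcc6 (chr7:45967555-46030302, minus strand) encodes a basolateral pump known for its loss in pseudoxanthoma elasticum, and was, with Slco1a1, one of the genes that lay above all HFD mice in every CLE and LU mouse. It was 51.8, 59.2 and 59.5 FPKM in ND, 70.1, 67.8 and 79.9 in HFD, 88.9, 158 and 97.3 in CLE and 99.7, 98.8 and 82.1 FPKM in LU livers. The HFD livers lay between the ND livers and the CLE and LU livers, with no overlap. HFD versus ND (log2 fold change 0.35, adjusted p = 0.234), CLE versus HFD (0.61, adjusted p = 0.0575) and LU versus HFD (0.36, adjusted p = 0.272) did not pass. Without CLE mouse 4 the value of CLE versus HFD was 0.36 (adjusted p = 0.181), and over 25 alternatives its adjusted p was 0.0174 to 0.238. Against ND, Abcc6 was 2.02-fold in CLE (log2 fold change 0.96, SE 0.179, adjusted p = 0.00461) and 1.65-fold in LU livers (0.71, adjusted p = 0.0237). The CLE call was lost only with the clock score as covariate (adjusted p = 0.393). The LU call was lost in 8 of 26 alternatives (adjusted p 0.00258 to 0.883), among them without ND mouse 2 (0.0776) or 4 (0.0597) and without LU mouse 2 (0.0674) or 3 (0.0717). The LU call was also lost with median-of-ratios scaling or GC correction.

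The sum of the 3 basolateral pumps was 94.9 to 130 FPKM in ND, 201 to 216 in HFD, 197 to 288 in CLE and 196 to 232 FPKM in LU livers, so all livers on the high-fat diet were above all ND livers. The sum of the 3 canalicular pumps overlapped between ND (285 to 328 FPKM) and HFD (325 to 342 FPKM), through ND mouse 4 and HFD mouse 12. These sums mostly follow the genes with high levels, Abcc3 and Abcc6 or Abcb4 and Abcc2. Gene by gene, 2 of 3 were called higher in HFD versus ND in both sets (9.99% of all genes). The ratio of Abcc3 to Abcc2 was 0.426 to 0.605 in ND, 0.836 to 0.986 in HFD, 0.738 to 0.989 in CLE and 0.85 to 1.28 in LU livers.

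CLE and LU livers were also compared directly. None of the 10 genes was called by limma (0.00865% of all genes were), none passed an unadjusted p of 0.05 (4.39% of all genes did), and in none did the 3 CLE mice stand apart from the 3 LU mice, where 7.08% of all genes did. The log2 difference of CLE from LU was -0.07 for Slco1a1 (95% interval -0.82 to 0.68), -0.26 for Slco1b2 (-0.59 to 0.07), 0.23 for Abcc2 (-0.09 to 0.54) and 0.25 for Abcc6 (-0.14 to 0.64). The interval of Slco1a1 was the widest, and differences within these bounds could not be called with 3 mice a group. Against ND, 4 of the 10 genes were called in CLE livers, with 27.0% of all genes called, and the same 4, Slco1a1, Abcb1a, Abcc3 and Abcc6, in LU livers, with 14.9% of all genes called.

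Against HFD, the CLE mice did not overlap the HFD mice in 8 of the 10 genes, with 31.3% of all genes, and the LU mice did not in 6, with 30.0% of all genes. In CLE livers Slco1a1 and Abcc6 were above and Slco1a4, Slco1b2, Abcb1a, Abcc2, Abcc3 and Abcc4 below every HFD mouse. In LU livers Slco1a1 and Abcc6 were above and Slco1a4, Abcb1a, Abcc2 and Abcc4 below. Among the 4 groups, limma's moderated F test called 6 of the 10 genes, with 24.4% of all genes: Slco1a1, Slco1a4, Abcb1a, Abcc3, Abcc4 and Abcc6. Permuting the F statistic exactly, over the 15400 ways of dividing 12 mice into 4 groups of 3, called 0 of the 10 after adjustment, with 1.31% of all genes, and 6 at an unadjusted p of 0.05, with 37.1% of all genes. These 6 held Abcc2 in place of Slco1a4. The adjusted exact p was 0.0523 for Slco1a1, Abcb1a and Abcc6, 0.0581 for Abcc3, 0.0628 for Abcc4, 0.121 for Abcc2 and 0.151 for Slco1a4 (0.0618 before adjustment).

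Other carriers and pumps of the pathway were taken as lists, whose counts stand beside the shares of all genes: 9.99% higher and 2.11% lower in HFD versus ND, with a median log2 difference of 0.11, 2.74% higher and 3.29% lower with CLE, and 0.303% higher and 0.726% lower with LU. Of 16 tested carriers of organic anions, cations and bile salts, 6 rose and 3 fell in HFD versus ND, with a median log2 difference of 0.37. Slc10a1, the sodium-dependent carrier of bile salts, fell from 500 ± 109 to 298 ± 26.3 FPKM (a log2 value of -0.73 with adjusted p = 0.00777), as did Slc22a7, which carries organic anions (17.1 ± 2.66 to 8.63 ± 2.06 FPKM), and Slc16a1, a carrier of lactate (45.8 ± 8.88 to 24.7 ± 4.18 FPKM). Slc22a27, of the organic anion carriers, rose from 0.385 ± 0.154 to 5.56 ± 1.24 FPKM and fell in CLE (1.06 ± 0.378) and LU livers (1.39 ± 0.973 FPKM; adjusted p = 0.00667 and 0.0137 versus HFD). Slc22a18 and Slc10a2 rose with the diet as well. Against HFD, 2 of the 16 fell with CLE and 1 with LU, and none rose.

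Of 10 other ABC pumps and their partners, 3 rose in HFD livers and none fell (9.99% and 2.11% of all genes), with a median log2 difference of 0.30 (0.11 over all genes). Abcg5 and Abcg8, which together export cholesterol into bile, rose from 28.9 ± 2.07 to 119 ± 12.1 FPKM and from 23.2 ± 0.637 to 60.8 ± 6.25 FPKM. Both fell with CLE, to 73.7 ± 5.78 and 32.4 ± 8.81 FPKM (adjusted p = 0.0187 and 0.0224 versus HFD). With LU they were 97.2 ± 15.1 and 47.4 ± 8.23 FPKM and did not pass (adjusted p = 0.213 and 0.274). Atp8b1, an aminophospholipid flippase of the canaliculus, rose by a log2 fold change of 0.56 (adjusted p = 0.0246). Of 5 scaffold and anchor genes, 1 rose in HFD, the membrane linker Msn, and Rdx, which anchors Abcc2 in the canalicular membrane, fell with CLE from 70.8 ± 6.93 to 42.6 ± 8.61 FPKM (adjusted p = 0.0197).

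Of 15 tested regulators of transporter genes, 4 rose with the diet and none fell (9.99% and 2.11% of all genes), with a median log2 difference of 0.07, below the 0.11 of all genes. They were Nr0b2 (a repressor induced by bile acids), Nr1i3 (CAR, a sensor of foreign compounds), Ahr (the aryl hydrocarbon receptor) and Nfe2l2 (the oxidative stress factor NRF2), the last from 33.4 ± 1.77 to 49.8 ± 3.55 FPKM. With LU limma called 0 of the 15 (1.03% of all genes; 5 of 15 at an unadjusted p of 0.05, with 20.3% of all genes). With CLE 1 was called (6.03% of all genes), Ghr, the growth hormone receptor, falling from 324 ± 10.1 to 193 ± 32.6 FPKM (adjusted p = 0.0216). Of 14 classical targets of those regulators, 7 rose and 2 fell in HFD (9.99% and 2.11% of all genes). Cyp3a11, a drug-metabolizing cytochrome, rose from 615 ± 162 to 2275 ± 216 FPKM, and Cyp2b10, Cyp2c55, Cyp1a2 and the quinone reductase Nqo1 rose too, while Cyp4a14, a fatty acid hydroxylase, fell from 3729 ± 1270 to 1362 ± 547 FPKM. With CLE, 3 of the 14 fell and with LU 4, Cyp2b10 and Cyp2c55 under both, and none rose (3.29% and 0.726% of all genes were lower). Cyp2b10 passed the filter through its HFD level, with a mean of 0.219 FPKM over the other groups, and had to differ to be tested.

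The 5 genes with the highest Pearson correlation to a member over the 12 livers were listed for the 3 members with the largest called change. For Slco1a1 these were Hsd3b5 (0.964), Mup21 (0.962), Cyp7b1 (0.951), C8b (0.943) and Serpina3k (0.929), for Abcc3 they were Cyp3a11 (0.969), Acyp2 (0.957), Fam25c (0.948), Prodh (0.948) and Bhlhe40 (0.944), and for Abcb1a they were Slc16a7 (0.982), Cd36 (0.977), Fmo5 (0.975), Gm10639 (0.971) and Slc22a27 (0.968). The points share their libraries and their diet groups, so these are descriptions of 12 livers.

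Since Slco1a1 is known as male-predominant, other genes with a sex difference in mouse liver were listed beside it. Of 11 tested male-predominant genes, 8 fell and none rose in HFD versus ND (2.11% and 9.99% of all genes), with a median log2 difference of -1.48. One of the 8, Moxd1, passed the filter only through its ND level. With CLE 5 of them rose versus HFD and with LU 3 (2.74% and 0.303% of all genes), and none fell. Hsd3b5, a hydroxysteroid dehydrogenase, went from 60.7 ± 32.4 FPKM in ND to 0.591 ± 0.418 in HFD, 22.8 ± 18.7 in CLE and 35.8 ± 28.5 FPKM in LU livers, and passed in all 3 comparisons (log2 fold change -5.19, 3.64 and 3.86). Cyp4a12b, a fatty acid hydroxylase, passed in all 3 as well (-2.09, 2.03 and 1.85). Serpina1e and Elovl3 passed in HFD versus ND and with CLE, and Cyp7b1 and Cyp4a12a only in HFD versus ND, with log2 values of 1.32 and 1.36 for CLE versus HFD (adjusted p = 0.0507 and 0.0520). Of 12 listed female-predominant genes 4 passed the filter, and no count is read from them. Cyp2b9 went from 0.555 ± 0.534 FPKM in ND to 81.8 ± 27.6 in HFD, 4.01 ± 4.05 in CLE and 5.27 ± 6.47 FPKM in LU livers, passing in all 3 comparisons. Cyp2a4 was 0.17 ± 0.201, 4.61 ± 0.911, 0.661 ± 0.462 and 0.449 ± 0.285 FPKM, values given as a description, since it passed the filter only through its HFD level (a mean of 0.427 FPKM over the other groups). The other tested female-predominant genes, Abcd2 and Acot3, were called in none of the 3 comparisons. Abcd2 was highest in HFD livers (8.47 FPKM, with a mean of 4.78 over the other groups). Acot3 was highest in CLE livers (34.1 FPKM, with a mean of 22.1 over the other groups). Serpina1e, Cyp2b9 and Cyp4a12b share sequence with close copies, and their values are uncertain for that reason.

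**Figure D4:**
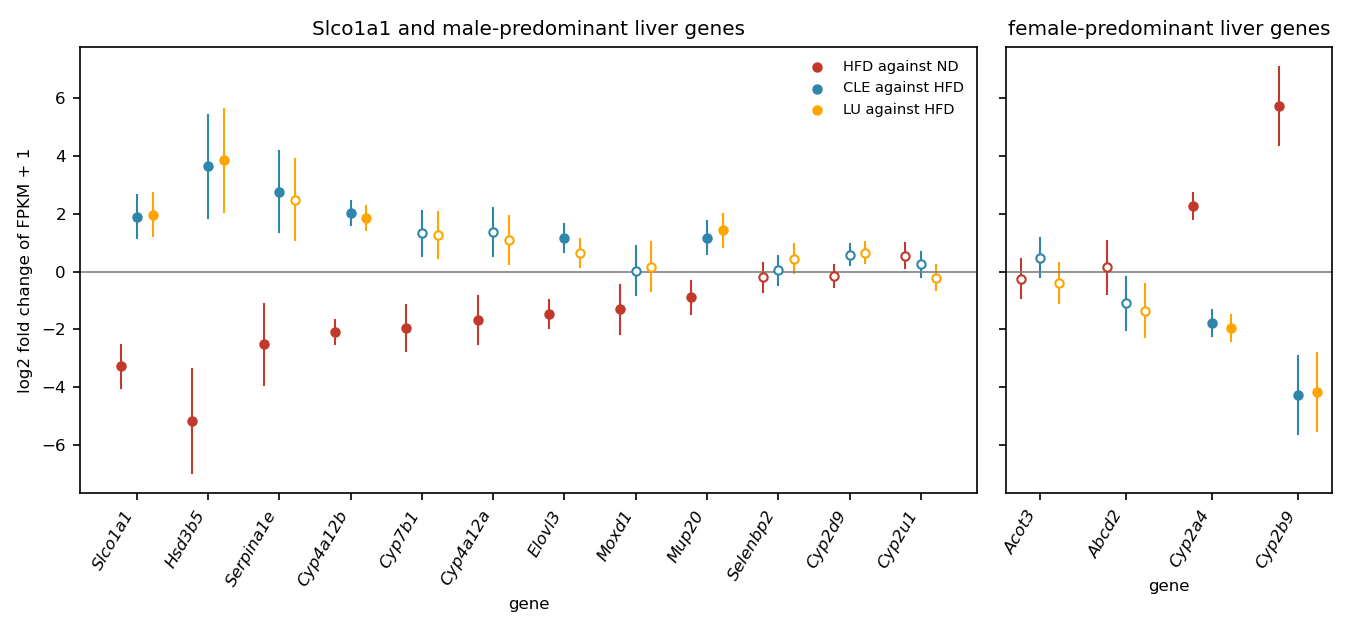
Log2 fold change of FPKM + 1 (vertical axis) with 95% confidence intervals for Slco1a1 and the tested male-predominant genes (left) and the tested female-predominant genes (right), in HFD versus ND, CLE versus HFD and LU versus HFD (colours), filled points marking an adjusted p below 0.05. Of the male-predominant genes 8 of 11 lie below 0 with a call in HFD livers, and Cyp2b9 lies at 5.74 in HFD versus ND and at -4.29 and -4.17 with CLE and LU.

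Which transcripts carried the signal differed between the supplement groups and the others. The table splits each gene over known and newly assembled transcripts, 6 to 19 for each of the 10 genes. For Abcb4, transcripts that start past the first 5% of the gene held 34.7% to 50.5% of its FPKM in ND, 39.4% to 51.3% in HFD, 60.9% to 83.5% in CLE and 68.4% to 76.7% in LU livers, although its summed level did not differ. For Abcc3 the shares were 31.2% to 46.7%, 27.4% to 53.1%, 60.4% to 79.7% and 67.9% to 72.4%. In 6 of the 10 genes (Slco1a4, Slco1b2, Abcb1a, Abcb4, Abcc2 and Abcc3) every CLE and LU liver was above every ND and HFD liver in this share. This held for 7.59% of 10225 genes with 2 or more transcripts. That set also takes in genes with fewer transcripts than these 10 and genes without a late-starting one, so it is not matched to them. In none of the 10 was every CLE and LU liver below. For Slco2b1, however, the share was lower in every LU liver (83.2% to 84.4%) than in every ND (98.2% to 100%) and HFD liver (94.5% to 100%). Its CLE livers (62.6% to 96.2%) overlapped the HFD livers. Slco1a1 kept at most 7.88% of its FPKM in such transcripts. The groups split here as they do in the GC correlation of the libraries, whose part in these shares was not tested. The choice of transcript turned the direction of Abcc2 in CLE versus ND, from 0.30 for the sum (adjusted p = 0.136) to -1.79 for the transcript with the highest mean (adjusted p = 0.0221).

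**Figure D5:**
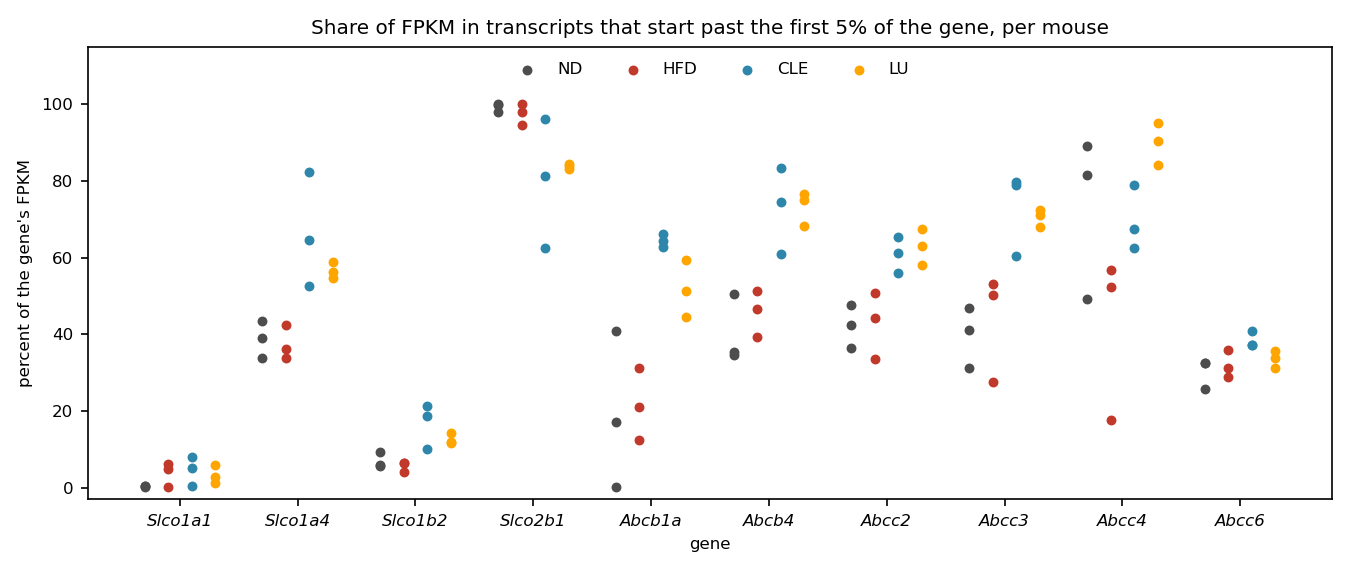
Percent of a gene's FPKM (vertical axis) in transcripts that start past the first 5% of the gene, for each of the 10 genes (horizontal axis) and each mouse (points, coloured by diet group). For Abcb4 the CLE and LU livers lie at 60.9% to 83.5%, above the ND and HFD livers at 34.7% to 51.3%, and Slco1a1 stays at or below 7.88% in all livers.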

How the data were processed

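Liver RNA of 12 mice, 3 in each of 4 diet groups, was sequenced from poly(A)-selected libraries. According to the submitters' processing notes, CASAVA 1.8.2, Bowtie2 2.2.3, TopHat2 2.0.12 and Cufflinks 2.2.1 were used. The authors deposited FPKM values per transcript, known (78786 entries) and newly assembled (73424), from an assembly of 30 samples, of which 12 are held here. The study's methods also name normalization factors, and whether the deposited values contain them is not stated. The genome build is not given in the sources used here, but 87.6% of 76916 known transcripts have the same start and end as in GENCODE M21, and gene coordinates are those of that GRCm38 annotation. Read depth and strand are not given.

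FPKM was summed per gene name. Genes averaging 0.5 FPKM or more over the livers were tested on log2(FPKM + 1) with limma 3.58.1 (R 4.3.3), with a variance trend, 1 coefficient per group and all 12 mice in 1 fit, and p-values were adjusted by Benjamini and Hochberg over all genes tested with a threshold of 0.05. Fold changes on this scale understate the change of low genes such as Abcb1a and Abcc4, for which the ratio of mean FPKM is given too. On data simulated for HFD against ND (11566 genes), a change of 1.5 (log2) given to 200 genes was recovered for 194, with 9 others called, and none was called where nothing had been changed. Each animal is 1 sample, and intervals cover 95%.

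The 10 genes and all lists were chosen with earlier results of these data known. All 10 are named, and of each list the genes called in HFD, CLE or LU comparisons, at most the 6 with the largest change. The motifs were chosen after the promoter sequences were seen. Alternatives changed the pseudocount (0.1), the filter, the scaling, the variance trend, the samples in the fit, the transcripts summed, corrections for GC content and length, a clock score as covariate, the mouse number as a block, and left out each mouse in turn.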

Additional observations from a re-analysis of the deposited data

How the results depend on the processing

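HFD against ND (5 called) gave 3 with the stricter filter of 5 FPKM, with quantile normalization, median-of-ratios scaling, the transcript with the highest mean, known transcripts only or GC correction, and 3 to 5 with 1 mouse left out. CLE against HFD (2 called) gave 1 with a pseudocount of 0.1, the 2 groups alone, known transcripts only, GC correction or length and GC correction, 0 with no filter or the clock score, and 0 to 4 with 1 mouse left out, where the 4 without CLE mouse 2 were Slco1a1, Abcb1a, Slco1b2 and Abcc6. For LU against HFD (1 called) the count was 0 with no filter or the clock score, 2 with known transcripts only, and 0 to 3 with 1 mouse left out, where the 3 without LU mouse 8 were Slco1a1, Slco1a4 and Abcb1a. CLE against ND (4 called) gave 0 with the clock score. LU against ND (4 called) gave 2 with no filter or median-of-ratios scaling, 0 with the clock score, and 1 to 4 with 1 mouse left out. Counts over all 11566 genes moved too. With the clock score 39 were called in CLE against ND (3119 in the main fit) and 15 in LU against ND (1727). It left 43 in CLE against HFD (698) and 15 in LU against HFD (119). With no filter CLE and LU against HFD gave 127 and 57 of 16980 genes. Without CLE mouse 2, 2190 genes were called in CLE against HFD, and without LU mouse 8, 213 in LU against HFD. Among the 4 groups (6 of the 10 genes called) the count was 3 with GC correction or the clock score and 0 with the exact permutation test. With a single mouse left out the log2 difference of CLE from LU was -0.49 to 0.26 for Slco1a1 and -0.00271 to 0.41 for Abcc6. The direction turned for Slco1a4 with the clock score (CLE against ND 0.44, LU against ND 0.43), for Slco1b2 in HFD against ND with median-of-ratios scaling (-0.0555), GC correction (-0.0193) and length and GC correction (-0.0227), and for Abcb4 in HFD against ND with the clock score (0.0696). It turned in CLE against ND for Slco2b1 with the highest transcript (-0.0940) and GC correction (-0.0119), for Abcb1a with the highest transcript (-0.0269), and for Abcc2 with the highest transcript (-1.79) and known transcripts only (-0.51), and with the highest transcript also for Abcc2 in CLE against LU (-0.23) and Abcc3 in CLE against HFD (0.21). The cause was not tested. Of 1025 values of 41 single-gene results under the alternatives, 890 kept direction and side of the threshold and 17 turned. Abcb1a and Abcc4 were too low for the filter of 5 FPKM, and Abcc4 for known transcripts and the highest transcript.

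ND, CLE and LU mice share some numbers in the labels, but nothing says that a number marks a shared cage or day, and deviations of same-numbered mice correlated at -0.26 and -0.10 (CLE with ND) and 0.09 and 0.18 (LU with ND). As a replicate block in a fit of the mice that share numbers, they left 3 of the 10 genes called in CLE against ND and 3 in LU against ND. The log2 fold change of Slco1a1 was then -1.65 and -0.94. HFD shares no number with another group.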
